A study of Ambystoma mexicanum with 12 samples.

Results

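KAZALD1 and FGF9 encode secreted proteins. The genes described here are 3 of the 99088 rows of the gene count matrix of axolotl limb tissue, chosen by identifier: the KAZALD1 copies KAZALD1.2 (AMEX60DD046379) and KAZALD1.3 (AMEX60DD046684), and FGF9 (AMEX60DD049338). The names pair with these identifiers in a table of the study that lists genes it had called between blastemas and limbs, partly on the same libraries, so a high level in blastemas is not independent evidence for any of the 3 genes. The study added a number to tell apart genes of the same name, so other rows named KAZALD1 may exist. Such rows were not read, and the KAZALD1 copies are these 2 rows throughout. RNA was sequenced from the blastemas that 5 juvenile axolotls, 8 months old, had formed 10 days after amputation (n = 5). Also sequenced were the amputated limb tissue of 5 juvenile animals (n = 5) and the limbs of 2 aged axolotls, 8 years old (n = 2). The aged animals formed no blastema after amputation, and the paper reports that no samples were taken from them after it. The sources used name no transgene and no agent other than the benzocaine that sedated all animals for amputation, and the animals came from a captive colony founded with animals of Lake Xochimilco. The paper names the right forelimb in one place and the inferior limbs in another, while the posterior leg stands in the labels, and the limb sampled remains unclear. Blastemas and juvenile limbs carry the numbers 2, 3, 5, 6 and 8, and the aged limbs carry 1 and 2, which are other animals. The sources describe limbs and blastemas of 5 juveniles but do not say which belong together, and equal numbers are taken here as the same animal.

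A blastema is the mass of dividing progenitor cells that gathers under the wound epidermis of an amputated salamander limb and builds the missing part. KAZALD1 carries an insulin-like growth factor binding domain, a Kazal-type domain and an immunoglobulin-like domain, and it is known in the axolotl as a gene that blastemas use during limb regeneration. FGF9 is a fibroblast growth factor, a ligand that leaves the cell, binds FGF receptors together with heparan sulfate and signals through kinases inside the cell to transcription factors such as ETV4. In mammals FGF9 takes part in the growth of the limb skeleton, the lung and the testis.

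The libraries held between 12975883 and 20663627 counts on genes. Levels are given as CPM, counts scaled to the size of each library, after TMM scaling over the 12 libraries, in which the effective library size of blastema 2 was the smallest. Blastemas are bulk tissue, so that a larger number of expressing cells and more RNA per cell cannot be told apart. The groups differed in tissue: the summed CPM of 14 skeletal muscle genes lay between 68.2 and 103 in blastemas, at 8736 and 1297 in the aged limbs 1 and 2 and between 4633 and 23632 in juvenile limbs, and that of 8 keratinocyte genes lay between 1865 and 4690 in blastemas, at 10743 and 10036 in aged limbs and between 5967 and 17264 in juvenile limbs. The summed CPM of 3 bone genes lay between 1.19 and 5.16 in blastemas, at 1.34 and 3.23 in aged limbs and between 14.3 and 29.6 in juvenile limbs. Between 3 and 5 of the muscle genes had no count in a blastema, and all were counted in every limb. PYGM alone was at 65.4 to 99.4 CPM in blastemas and made up most of their muscle sum. The bone sum in blastemas was PHOSPHO1 alone, since BGLAP and IFITM5.1 had no count there. The part of these tissues in the differences of KAZALD1 and FGF9 was not tested.

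The first comparison asks which level the secreted factors have in the blastema relative to the limb. Both copies of KAZALD1 were higher in every blastema than in every juvenile limb, by 51.4-fold for KAZALD1.2 and 50.4-fold for KAZALD1.3 as ratios of mean CPM, while the ratio of medians was 35.2 and 20.9. FGF9 was 6.59-fold higher as a ratio of means and higher in the blastema of each of the 5 animals, but its groups overlapped and it did not pass the test across genes.

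KAZALD1.2 was at 332, 30.0, 11.9, 45.3 and 52.1 CPM in blastemas 2, 3, 5, 6 and 8, against 1.29, 2.82, 1.24, 3.11 and 0.710 CPM in the juvenile limbs of the same animals. The lowest blastema, number 5, was still 3.83-fold above the highest juvenile limb, number 6. The means were 94.2 ± 134 CPM in blastemas and 1.83 ± 1.06 CPM in juvenile limbs (SD, n = 5 each), so the spread over blastemas was larger than their mean. In the fit across 19961 genes (edgeR's quasi-likelihood test, Benjamini-Hochberg adjustment) the log2 fold change was 5.68 ± 0.93 (SE), with a 95% interval from 3.66 to 7.70 and an adjusted p of 0.00232.

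KAZALD1.3 was at 362, 30.0, 15.5, 45.5 and 65.6 CPM in blastemas 2, 3, 5, 6 and 8, against 2.18, 2.45, 0.896, 3.42 and 1.35 CPM in the juvenile limbs of the same animals. The pattern was that of the other copy, with blastema 2 far above the rest, blastema 5 lowest, and no overlap with the limbs, since the lowest blastema was 4.52-fold above the highest juvenile limb. The means were 104 ± 146 CPM in blastemas and 2.06 ± 0.98 CPM in juvenile limbs (SD, n = 5 each). The log2 fold change was 5.65 ± 0.90 (SE), with a 95% interval from 3.70 to 7.60 and an adjusted p of 0.00186 (edgeR).

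FGF9 was low throughout, with 12, 106, 19, 66 and 64 counts in blastemas 2, 3, 5, 6 and 8, and 1, 13, 0, 9 and 22 counts in the juvenile limbs of the same animals. On the CPM scale these were 1.18, 4.88, 1.50, 5.00 and 4.76 in the blastemas and 0.0495, 0.602, 0, 0.559 and 1.42 in the juvenile limbs. Blastemas 3, 6 and 8 were close to each other and above every juvenile limb, and so was blastema 5 by a small margin, whereas blastema 2 was below juvenile limb 8. In juvenile limb 5, the count of 0 allows a level of up to 0.207 CPM (3 counts, counting error only).

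FGF9 averaged 3.46 ± 1.95 CPM in blastemas and 0.526 ± 0.572 CPM in juvenile limbs (SD, n = 5 each). Its log2 fold change was 2.71 ± 0.85 (SE), with a 95% interval from 0.85 to 4.56, and it was not called, at an adjusted p of 0.0725 (edgeR). With the number, taken as the animal, as a block, the same test gave 3.20 and an adjusted p of 0.0218, which passes. DESeq2, the tool of the study, gave 2.72 and an adjusted p of 0.00710. The edgeR test also passed without blastema 2, at an adjusted p of 0.0476, and without juvenile limb 8, at 0.0450, while over all alternatives the adjusted p lay between 3.6e-05 and 0.138.

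Thus 2 of the 3 genes were called higher, as were 1.86% of the 19961 genes tested, and the same 2 genes had every blastema above every juvenile limb, as had 3.32% of all genes tested. The 3 genes were picked from a list of called genes, so nothing is read from these shares. Genes count as called here where the adjusted p was under 0.05 and the log2 fold change exceeded 1 in size.

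**Figure D1:**
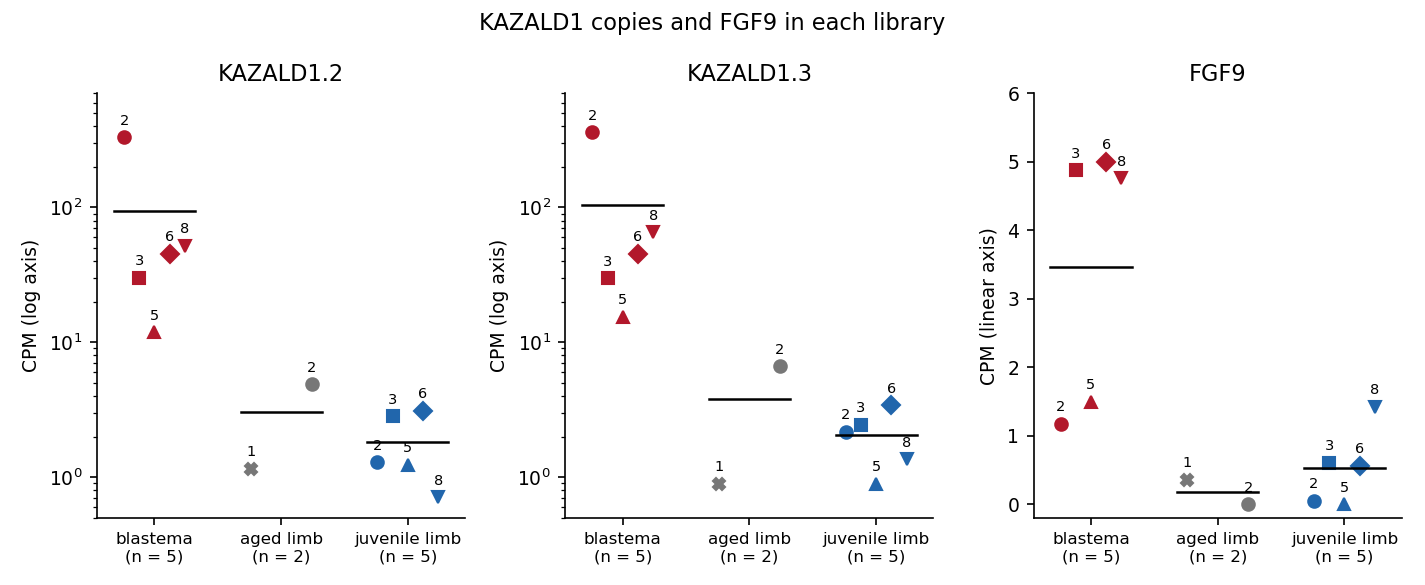
CPM (y axis; log axis for the KAZALD1 copies, linear axis for FGF9) of each library in blastemas, aged limbs and juvenile limbs, with the animal number above each point and the group mean as a bar; the aged limbs are other animals than those of the same number. Blastema 2 is the highest of all libraries for both copies of KAZALD1, at 332 and 362 CPM, and the lowest blastema for FGF9, at 1.18 CPM.

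With equal numbers taken as the same animal, the difference can be read within each animal. KAZALD1.2 was 258-fold higher in the blastema than in the limb of animal 2, 10.6-fold in animal 3, 9.60-fold in animal 5, 14.6-fold in animal 6 and 73.4-fold in animal 8. For KAZALD1.3 the same ratios were 166, 12.22, 17.2, 13.3 and 48.5. All animals had higher KAZALD1 in the blastema, with animals 3, 5 and 6 close together and animals 8 and 2 well above them.

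Summed over these 2 copies, KAZALD1 was at 694, 60.0, 27.4, 90.8 and 118 CPM in blastemas 2, 3, 5, 6 and 8. In the juvenile limbs of the same animals the sum was at 3.46, 5.27, 2.14, 6.52 and 2.06 CPM. The difference in log2(CPM + 0.5) was 7.45, 3.39, 3.40, 3.70 and 5.53, with a mean of 4.69 ± 1.78 (SD, n = 5). An exact two-sided permutation test over the 10 libraries gave a p of 0.00794, the smallest that 5 against 5 libraries allow. Swapping libraries only within animals gave an exact p of 0.0625, again the smallest possible with 5 pairs, and cannot pass 0.05. The order of the limbs was not that of the blastemas: the limbs of animals 6 and 3 were above that of animal 8, whose blastema was above theirs. Limbs 8 and 5, with 32 and 31 counts, cannot be ordered beyond counting error, and neither can limbs 6 and 3, with 105 and 114.

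The ratio of FGF9 in the blastema to the limb of the same animal was 23.8 in animal 2, where the limb had 1 count, 8.12 in animal 3, 8.95 in animal 6 and 3.36 in animal 8. In animal 5 the limb had no count and no ratio is given. On the log2(CPM + 0.5) scale, which shrinks ratios of low levels, the differences were 1.61, 2.29, 2.00, 2.38 and 1.46 in animals 2, 3, 5, 6 and 8, with a mean of 1.95 ± 0.41 (SD, n = 5). FGF9 thus differed in the same direction in 5 of 5 animals and, on this scale, by amounts that lay closer together than those of KAZALD1. The limbs and blastemas of animals 2 and 5 were low for FGF9 alike, and those of animal 8 were high in both.

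**Figure D2:**
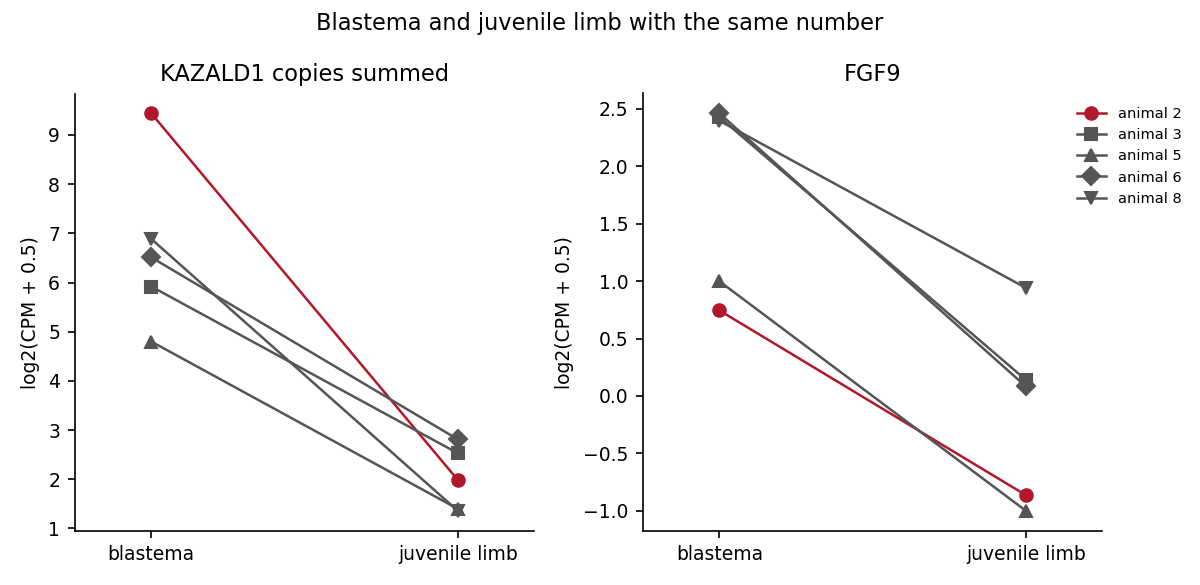
log2(CPM + 0.5) of the summed KAZALD1 copies and of FGF9 (y axes) in the blastema and the juvenile limb of the same number, taken as the same animal, with 1 line for each of the 5 animals and animal 2 in red. All lines lead to a lower level in the limb; animal 2 has the steepest line for KAZALD1, a difference of 7.45, and low FGF9 at both ends.

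The spread between single blastemas differed between the genes. Blastema 2 held 70.1% of the summed KAZALD1 CPM of the 5 blastemas and was 9.20-fold above the median of the other 4. The coefficient of variation over the 5 blastemas was 1.42 for KAZALD1.2 and 1.40 for KAZALD1.3. Of 1482 genes with a mean level in blastemas similar to that of KAZALD1.2, 99.4% varied less, and their median coefficient was 0.232. FGF9 had a coefficient of 0.562, and 69.3% of 6011 genes of similar mean varied less.

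Without blastema 2 the coefficient of variation was 0.513 for KAZALD1.2 and 0.550 for KAZALD1.3, and the summed level was 73.96 ± 39.0 CPM (SD, n = 4). Leaving this library out of the fit lowered the log2 fold change against juvenile limbs to 4.29 for each copy, and both were still called by edgeR. The 4 remaining blastemas ranged from 27.4 to 118 CPM for the summed copies. The ratio of mean CPM to juvenile limbs was 19.0 for each copy without blastema 2.

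The order of the blastemas was not the same for both factors. For either copy of KAZALD1 it ran 2, 8, 6, 3, 5 from the highest to the lowest, and for FGF9 it ran 6, 3, 8, 5, 2. Blastema 5 was low for both. Blastema 2 was the highest of 5 for KAZALD1 and the lowest of 5 for FGF9, although blastemas 2 and 5 differed little for FGF9, with 12 and 19 counts. Blastemas 3, 6 and 8 had FGF9 between 4.76 and 5.00 CPM and cannot be ordered beyond counting error.

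Blastema 2 stood at an end for many genes. It was the highest blastema for 28.1% and the lowest for 29.3% of the 19961 genes tested, and it was more than 3 times the median of the other blastemas for 7.39%. Of the 371 genes called higher in blastemas it was the highest for 40.2%. Its summed CPM of 10 immune genes was 522, against 257 to 393 in the other blastemas, and that of the keratinocyte genes was 2184, next to the lowest. Most of the immune sum came from IL1B at 239 CPM and LSP1 at 195 CPM, and blastema 2 was the highest blastema for 4 of the 10 genes. Whether these go with its KAZALD1 or its FGF9 was not tested. The CPM of 9 proliferation genes summed to 112 in blastema 2 and to between 82.5 and 106 in the other blastemas. This sum was 93.4 and 61.9 CPM in aged limbs 1 and 2 and between 39.6 and 113 CPM in juvenile limbs, so the groups overlapped.

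The genes whose pattern over the 12 libraries was most like that of each factor were sought among 25260 genes, by Pearson's correlation of log2(CPM + 0.5). The points share libraries, depth and groups, so the values are a description. The copies were most like each other, with r = 0.99, whereas FGF9 had r = 0.65 with either copy. Of the other genes, the 5 most like KAZALD1.2 were ZC4H2, a zinc finger gene, at 0.97, ANGPTL2, a secreted angiopoietin-like factor, at 0.97, AMEX60DD025429, which the tables used do not name, at 0.96, PAMR1, a secreted protein named for muscle regeneration, at 0.96, and IL11, a cytokine of the interleukin 6 family, at 0.95. The 5 most like KAZALD1.3 were ANGPTL2, PAMR1, ZC4H2, AMEX60DD025429 and SHF.1, an adaptor gene, from 0.97 for ANGPTL2 to 0.94 for SHF.1. HMOX1, heme oxygenase, was the next of the named genes, at 0.94.

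IL11 was at 43.6, 6.12, 0.158, 10.8 and 6.33 CPM in blastemas 2, 3, 5, 6 and 8, with 808 counts in all, and had 0 counts in the 5 juvenile limbs together. Pooled over the libraries of each group, IL11 was at least 332-fold higher in blastemas, against a floor of 3 counts over the juvenile limbs, and at least 174-fold higher without blastema 2. It was not tested between these groups because too few libraries reached the minimum count.

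ANGPTL2 was at 11.3, 3.78, 2.52, 5.53 and 2.68 CPM in blastemas 2, 3, 5, 6 and 8, and between 0 and 0.509 CPM in juvenile limbs. PAMR1 was at 16.7, 4.65, 2.76, 9.17 and 5.43 CPM in the same blastemas, and between 0.186 and 1.02 CPM in juvenile limbs. Both had every blastema above every juvenile limb, as had 3.32% of all genes tested, and were called higher by edgeR, as were 1.86%. Their log2 fold changes were 4.54 ± 0.70 and 3.72 ± 0.56 (SE). In ANGPTL2, PAMR1, ZC4H2, SHF.1, HMOX1 and IL11, blastema 2 was the highest and blastema 5 the lowest, as in KAZALD1. All were chosen for likeness to KAZALD1 over libraries that include these, so neither their direction nor their order is independent evidence.

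The genes most like FGF9 were others. The 5 highest were AMEX60DD035841 at 0.96, ACSL6, an acyl-CoA synthetase, at 0.94, AMEX60DD022529 and AMEX60DD050728, each at 0.92, and FREM1.1, a basement membrane protein, at 0.91. PLEKHG1, a guanine nucleotide exchange factor gene, COL5A3.3, a chain of type V collagen, and HMCN2.1, a hemicentin of the extracellular matrix, followed among the named genes, each at 0.90. FREM1.1 was at 0.980, 3.09, 2.36, 4.93 and 3.27 CPM in blastemas 2, 3, 5, 6 and 8 and reached at most 0.258 CPM in juvenile limbs. HMCN2.1 was at 8.23, 28.7, 11.0, 37.5 and 18.8 CPM in the same blastemas, and between 0.972 and 4.97 CPM in juvenile limbs. In all 5 named genes blastema 2 was the lowest, as in FGF9. All 5 named genes were called higher in blastemas by edgeR, where 1.86% of all genes tested were. Their log2 fold changes ran from 1.70 ± 0.25 (SE) for PLEKHG1 to 5.03 ± 0.81 (SE) for FREM1.1. Of the unnamed genes, AMEX60DD050728 was called, with a log2 fold change of 2.03. AMEX60DD035841, the gene most like FGF9, was not called, at 1.80 and an adjusted p of 0.0986 (edgeR). Nor was AMEX60DD022529, at a log2 fold change of 0.73. The genes were chosen for likeness to FGF9 over libraries that include these, so neither their direction nor their order is independent evidence.

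**Figure D3:**
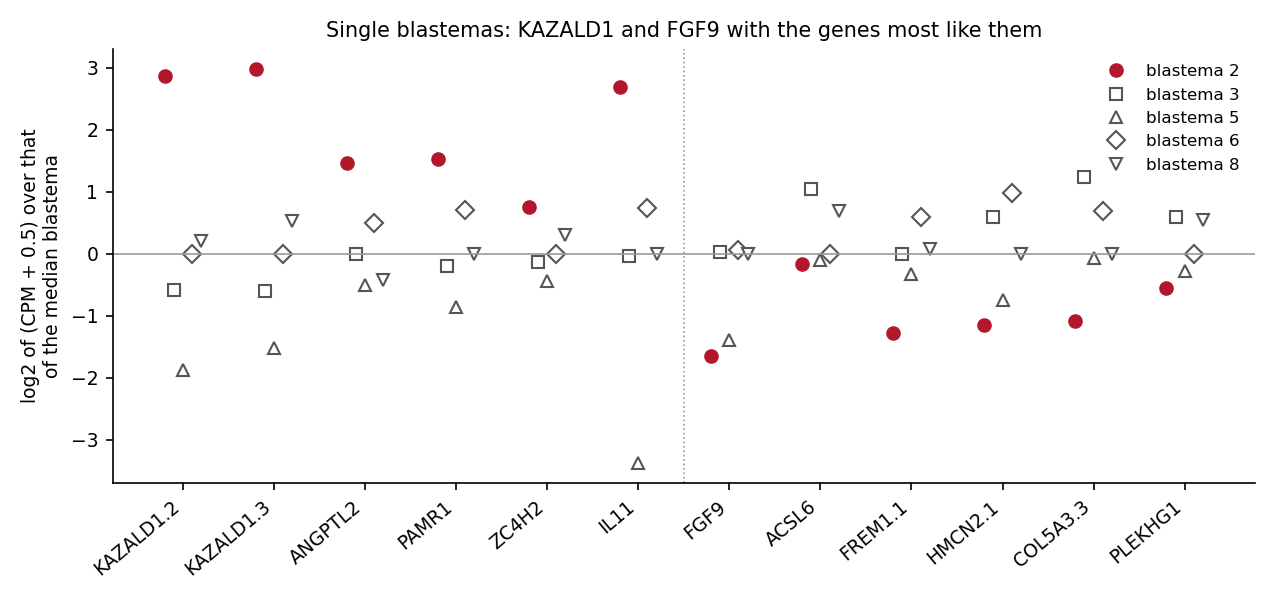
log2 of the level (CPM + 0.5) in each blastema over that of the median blastema (y axis) for KAZALD1, FGF9 and named genes most like each of them (x axis), with 1 symbol for each of the 5 blastemas and blastema 2 filled in red; the genes right of the dotted line go with FGF9. Blastema 2 is the highest of 5 in every gene on the left and the lowest of 5 in every gene on the right. The genes were chosen for likeness over libraries that include these blastemas, so a shared order is partly built in.

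The copies of KAZALD1 were counted apart, and reads that match both could be shared out by the counting, so their separate values are uncertain. Row lengths are not known here, so a share of the counts does not show which copy was expressed more. KAZALD1.3 took 52.2%, 49.96%, 56.5%, 50.1% and 55.8% of the counts of both copies in blastemas 2, 3, 5, 6 and 8, 43.5% and 57.5% in aged limbs 1 and 2, and 62.9%, 46.5%, 41.9%, 52.4% and 65.6% in juvenile limbs 2, 3, 5, 6 and 8. The exact binomial 95% interval was narrow in blastema 2, from 51.0% to 53.4% of 7081 counts, and wide in juvenile limb 5, from 24.5% to 60.9%. The log2 ratio of KAZALD1.3 to KAZALD1.2 differed by -0.06 between blastemas and juvenile limbs, with an exact two-sided permutation p of 0.849 (5 against 5), by -0.19 between aged and juvenile limbs (exact p 0.667) and by 0.14 between blastemas and aged limbs (exact p 0.619). A difference in the balance of the copies between groups was thus not detected. Between single blastemas, the interval of blastema 8, from 53.3% to 58.2%, lay above those of blastemas 3 and 6. These ran from 47.2% to 52.7% and from 47.3% to 53.0%, while the intervals of blastemas 2 and 5 overlapped that of blastema 8. The intervals cover counting error only, take each read as counted for 1 copy, and hold no variation between libraries. No difference between single blastemas is therefore read from them. In each library the counts of the copies lay within a factor of 1.91 of each other, whereas the copies together differed by up to 338-fold between libraries.

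**Figure D4:**
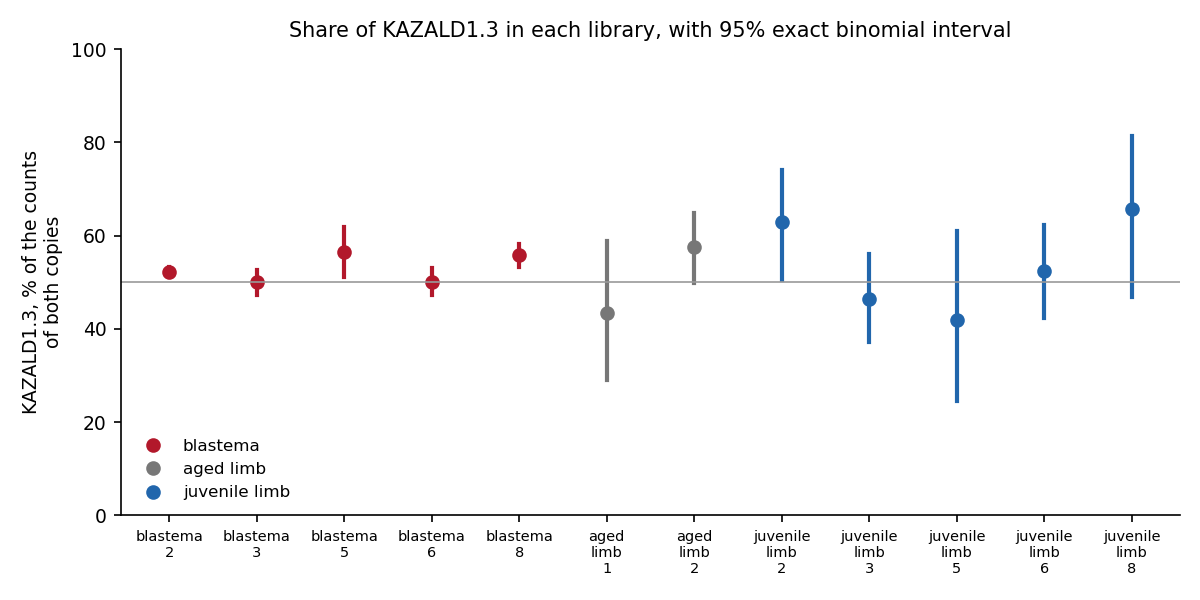
Share of KAZALD1.3 in the counts of both KAZALD1 copies (y axis, percent) in each of the 12 libraries, with the 95% exact binomial interval as a line. The shares lie between 41.9% and 65.6% in all groups, with the widest intervals in juvenile limbs and aged limb 1, where counts are low.

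The comparison of blastemas with aged limbs sets the factors against limb tissue of animals that formed no blastema after amputation. The aged tissue was not collected after amputation, so it is not that of a stump without a blastema. Age, 8 months against 8 years, and the 10 days since amputation differ together in this comparison and cannot be told apart. Every blastema was above both aged limbs for KAZALD1.2, KAZALD1.3 and FGF9. KAZALD1.2 had 1.16 and 4.90 CPM and KAZALD1.3 had 0.891 and 6.65 CPM in aged limbs 1 and 2, against at least 11.9 and 15.5 CPM in the 5 blastemas. Aged limb 2 was 4.23-fold above aged limb 1 for KAZALD1.2 and 7.46-fold for KAZALD1.3, and its summed muscle genes were the lower of the pair. FGF9 had 8 counts, or 0.356 CPM, in aged limb 1 and no count in aged limb 2, which allows up to 0.194 CPM there, against 1.18 to 5.00 CPM in blastemas.

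The ratio of mean CPM in blastemas to that in aged limbs was 31.1 for KAZALD1.2, 27.5 for KAZALD1.3 and 19.4 for FGF9, the ratio of medians was 14.9, 12.07 and 26.7 for these genes, and without blastema 2 the ratio of means was 11.5, 10.4 and 22.6. In the fit across 22076 genes, edgeR gave log2 fold changes of 5.00 (95% interval from 1.52 to 8.49, adjusted p 0.180) for KAZALD1.2, 4.83 (from 1.27 to 8.39, adjusted p 0.204) for KAZALD1.3 and 4.18 (from 1.51 to 6.85, adjusted p 0.149) for FGF9. None was called, where 0.439% of genes were called higher, and the unadjusted p values of 0.0101, 0.0135 and 0.00639 were all under 0.05. All blastemas were above both aged limbs for 9.74% of the genes tested. DESeq2 on the same libraries called all 3, with adjusted p values of 0.00775, 0.0160 and 0.00127.

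For the summed copies, the mean difference in log2(CPM + 0.5) was 4.24 between 5 blastemas and 2 aged limbs. Its exact permutation p, counting splits with at least this absolute difference, was 0.0476, the smallest that 5 against 2 libraries allow. Leaving out any library puts the smallest possible p above 0.05.

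The comparison of aged with juvenile limbs asks whether the limbs differed in these factors with age. KAZALD1 was above all juvenile limbs in aged limb 2, for either copy, and within the juvenile range or just below it in aged limb 1. For FGF9 the aged limbs, at 0.356 CPM and 0, lay within the juvenile range of 0 to 1.42 CPM. The groups overlapped for all 3 genes.

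The log2 fold changes of aged over juvenile limbs by edgeR, fitted on 24316 genes, were 0.73 for KAZALD1.2 (95% interval from -0.85 to 2.31, adjusted p 0.890), 0.88 for KAZALD1.3 (from -0.76 to 2.51, adjusted p 0.863) and -1.45 for FGF9 (from -5.36 to 2.45, adjusted p 0.920). Of the 3 genes, none was called, none had an unadjusted p under 0.05 and none was called by DESeq2, where 0.103% of the genes tested were called by edgeR in either direction. The sign for KAZALD1 rested on aged limb 2: without it, the log2 fold changes were -0.62 for KAZALD1.2 and -1.16 for KAZALD1.3. The interval of FGF9 reaches several fold in both directions, and those of the KAZALD1 copies reach further above 0 than below it. For the summed copies, the exact permutation p was 0.619 for a difference of 0.45 in log2(CPM + 0.5).

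**Figure D5:**
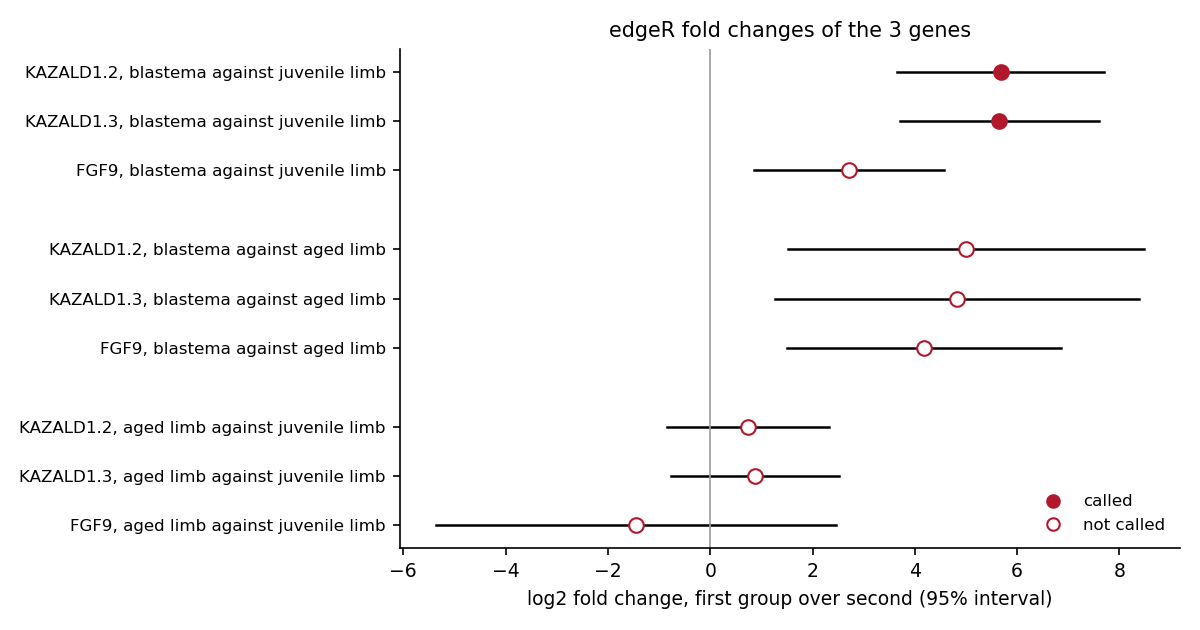
log2 fold change by edgeR with its 95% interval (x axis) for KAZALD1.2, KAZALD1.3 and FGF9 in the 3 comparisons (y axis), with filled points for called genes and open points for those not called. Only the KAZALD1 copies between blastemas and juvenile limbs are called, at 5.68 and 5.65; the intervals of all 3 genes against aged limbs lie above 0, and those between aged and juvenile limbs span 0.

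Other genes of the FGF pathway were taken from the gene names in the study's tables, 7 of 11 from its list of called genes, so that their directions are not independent evidence. Of 10 tested between blastemas and juvenile limbs, 4 were called higher and 1 lower by edgeR, where 1.86% and 5.6% of all genes tested were, with a median log2 fold change of 1.55, against -0.02 over all genes tested. ETV4, a transcription factor induced by FGF signalling, was at 53.5, 56.6, 37.4, 39.1 and 35.0 CPM in blastemas 2, 3, 5, 6 and 8, and between 6.99 and 19.0 CPM in juvenile limbs. Its log2 fold change was 1.82 ± 0.28 (SE), and unlike FGF9 it was not low in blastema 2. GPC6 and GPC6.2, rows named for a glypican that carries heparan sulfate, had log2 fold changes of 1.95 ± 0.40 and 1.97 ± 0.37 (SE). GPC6.1, a further row of that name, was not called in this fit and was called higher without blastema 2. Whether these rows are separate genes is not known here, so the 4 called higher may include 1 gene more than once.

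SULF1, an enzyme that removes sulfate groups from heparan sulfate outside the cell, was at 24.98, 90.1, 6.23, 110 and 32.004 CPM in blastemas 2, 3, 5, 6 and 8, and between 6.46 and 18.7 CPM in juvenile limbs. Its log2 fold change was 2.24 ± 0.63 (SE), with blastemas 6 and 3 the highest. FGFBP2, of the family of FGF binding proteins, went the other way, from 0.0788 to 4.70 CPM over the blastemas and from 3.15 to 84.3 CPM over the juvenile limbs, with a log2 fold change of -4.21 ± 0.93 (SE). PTPN11 and CRKL, which pass on the signal inside the cell and were not taken from the list of called genes, were not called, with log2 fold changes of -0.14 and 0.12 and adjusted p values of 0.660 and 0.698 (edgeR). Against aged limbs, ETV4 and GPC6.2 were called higher in blastemas, 2 of 10 tested where 0.439% of all genes tested were, with log2 fold changes of 2.32 ± 0.30 and 3.34 ± 0.62 (SE).

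Genes that share domains with KAZALD1 were called in both directions. All 4 genes of this kind came from the study's list of called genes. Of these, 1 was called higher and 2 lower in blastemas than in juvenile limbs, where 1.86% and 5.6% of all genes tested were, with a median log2 fold change of -0.71, against -0.02 over all genes. TMEFF1, a transmembrane protein with Kazal-like domains, rose by 2.24 ± 0.45 (SE) on the log2 scale, with 10.8, 6.40, 2.13, 4.70 and 2.98 CPM in blastemas 2, 3, 5, 6 and 8 and between 0.896 and 1.42 CPM in juvenile limbs. IGFBP7, a secreted binding protein of the insulin-like growth factor system, was at 4.02 to 15.5 CPM in blastemas and 23.0 to 72.05 CPM in juvenile limbs, a log2 fold change of -2.52 ± 0.42 (SE). HTRA1, a secreted protease with both an IGF binding and a Kazal-type domain, was at 0 to 0.552 CPM in blastemas and 0.879 to 5.097 CPM in juvenile limbs, with a log2 fold change of -3.54 ± 0.75 (SE).

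Among 17 other secreted signals tested, 5 were called higher and 6 lower in blastemas than in juvenile limbs, where 1.86% and 5.6% of all genes tested were, with a median log2 fold change of -0.05, against -0.02 over all genes. The list holds 24 genes, 21 of them from the called genes of the study. Besides ANGPTL2, the higher ones were BMP2.2 at 2.42 ± 0.30, WNT5A at 2.45 ± 0.44, WNT5B at 3.71 ± 0.85 and ANGPTL4 at 2.79 ± 0.55 (log2 fold change ± SE). WNT5B had the order of blastemas seen for KAZALD1, with 40.4 CPM in blastema 2 and 8.63 CPM in blastema 8, whereas WNT5A was highest in blastema 3, at 59.1 CPM. Those called lower were KITLG, MSTN, CCL19, CCL19.1, CYTL1 and ADIPOQ, of which MSTN, CCL19.1 and CYTL1 had 3, 1 and 1 counts in all blastemas together. Over the 24 genes of this list, blastema 2 was the highest blastema for 11 and the lowest for 2. It was the highest for 28.1% and the lowest for 29.3% of all genes tested, and the highest for 40.2% of those called higher. Nothing is read from the count for this list.

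Genes known from the limb bud or the blastema gave 7 called higher of 13 tested, with a median log2 fold change of 2.19, and 15 of the 18 genes listed came from the study's called genes. The share called higher was 1.86% over all genes tested, whose median was -0.02. The 7 genes were SALL4 at 4.096 ± 0.47, MYCN at 4.46 ± 0.82, VWDE.1 at 3.69 ± 0.84, MSX2 at 2.66 ± 0.30, VWDE at 2.64 ± 0.35, TWIST1 at 2.19 ± 0.57 and LEF1 at 2.17 ± 0.56 (log2 fold change ± SE). In the fit without blastema 2, 5 of 14 tested were called higher, and TWIST1 and LEF1 were not among them. TBX3, TBX5 and TBX5.1, T-box genes of the limb that were not taken from the called genes, were not called in the fit of all blastemas, with log2 fold changes of -0.39, -0.15 and 0.33 and adjusted p values of 0.525, 0.922 and 0.824 (edgeR). VWDE encodes a secreted protein with a von Willebrand factor D domain, and its copies differed in their order over blastemas: VWDE.1 was at 84.4 CPM in blastema 2 and at most 13.8 CPM in the others, whereas VWDE was highest in blastema 6, at 52.4 CPM. Against aged limbs, MSX2, DLX6.1 and VWDE of this list, 3 of 15 tested, were called higher in blastemas, where 0.439% of all genes tested were.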

How the data were processed

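RNA of 12 limb and blastema samples was sequenced after depletion of ribosomal RNA. The authors used Trimmomatic 0.39 for trimming, STAR 2.7.9a for alignment (genome AmexG_v6.0-DD) and featureCounts for the table (annotation AmexT_v47), and deposited whole-number counts without normalization. How featureCounts treated strand, multiple matches and overlaps is not given in the sources used here. Group and animal number come from the labels.

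Counts were compared with edgeR 4.0.16 in R 4.3.3 (TMM, filterByExpr, quasi-likelihood F test, Benjamini-Hochberg over all genes tested), each pair of groups on its own libraries. DESeq2 1.42.0, which the study used, was an alternative. So were other size factors and low-count filters, a fit of all libraries, the animal as a block and leaving out each library. Standard errors are the fold change over the square root of F. The test was also run on simulated counts, drawn with no library set apart from its group, and no result here rests on that run. Exact permutation tests and descriptions used Python 3.11 with CPM computed from the counts. Intervals of shares and limits from a count of 0 (3 counts) cover counting error only.

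The sources describe limbs and blastemas of 5 juveniles, and the pairing of equal numbers is inferred from the labels. After subtracting group means, a blastema and the limb of the same number correlated with r between 0.030 and 0.204 (median 0.158, 5 pairs). Pairs of different numbers had r between -0.196 and 0.137 (median -0.021, 20 pairs). The ranges overlap, and the values do not settle the pairing.

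The genes and lists were chosen with earlier results of these data known. Named were the 3 genes, called genes of the lists, list genes not taken from the called ones where stated, and the 5 genes most like each, overall and among the named. The reference table used for gene names holds 1 gene named KAZALD1 and 1 named FGF9 of another assembly without these identifiers, so no sequence or length is given. Levels are not compared between genes, apart from sums of CPM and the share of KAZALD1.3 in the counts of the copies. The values of 1 listed gene are not reported here.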

Additional observations from a re-analysis of the deposited data

Results flagged for a closer look

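Within groups of 5 libraries, values were checked for a highest or lowest library set apart from the rest by more than 0.710 of the group's range. Of 98 groups of values checked, 15 had such a library, and chance gives about 1 in 20 for normally distributed values. Most values checked were CPM without logs, some from very few counts, for which this rate need not hold. Blastema 2 was that library in 10 of the 15. The groups are not independent, since they hold both KAZALD1 copies, their sum and genes chosen for their likeness to KAZALD1, so these numbers are not set against that rate.

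For KAZALD1.2, blastema 2 at 332 CPM was set apart by 0.874 of the range, the other blastemas lying between 11.9 and 52.1 CPM. For KAZALD1.3 it was at 362 CPM, with the others between 15.5 and 65.6 CPM and a gap of 0.855. For the copies summed the gap was 0.864.

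The other genes with blastema 2 highest and apart were VWDE.1 (0.894 of the range), HMOX1 (0.830), WNT5B (0.820), TWIST1 (0.801), IL11 (0.754) and FGFBP2 (0.722). For CYTL1, MSTN and CCL19.1 the gap was 1, since single blastemas (2, 3 and 6) held the only counts. Among juvenile limbs, number 8 was high for VWDE.1 (0.810) and for SHF.1 (0.759), and number 5 for WNT5B (0.730). Neither group of FGF9 was set apart in this way.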

How the results depend on the processing

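The KAZALD1 copies were called higher in blastemas than in juvenile limbs under all 19 alternatives. Leaving out 1 library at a time gave log2 fold changes of 4.29 (without blastema 2) to 5.96 for KAZALD1.2, 4.29 to 5.93 for KAZALD1.3 and 2.40 to 3.52 for FGF9. FGF9 passed with DESeq2 (2.72 on the libraries compared, 2.72 on all 12), with no filter on low counts (2.78), and with the replicate block by edgeR (3.20) and by DESeq2 (3.31). The animal block changed no other call of the 3 genes. With it, the edgeR log2 fold change fell from 5.68 to 4.79 for KAZALD1.2 and from 5.65 to 4.82 for KAZALD1.3. No paired analysis was possible for the aged limbs because they come from other animals.

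Against aged limbs, the 3 genes were called by DESeq2 on the libraries compared (4.98, 4.81 and 4.19 for KAZALD1.2, KAZALD1.3 and FGF9), by DESeq2 on all 12 libraries (4.98, 4.81 and 4.22) and by edgeR with no filter (4.97, 4.80 and 4.15). Leaving out 1 library gave 3.58 to 6.35, 3.43 to 6.86 and 3.28 to 8.66, none called. For aged over juvenile limbs the ranges were -0.62 to 1.43, -1.16 to 1.70 and -6.20 to -0.49. The lone aged limb in fits without the other is assumed to vary like the other libraries. For FGF9, the values 8.66 and -6.20 come from the fits without aged limb 1. Aged limb 2, which these fits keep, had no FGF9 count, so their size is set by a count of 0 and is not a measured fold. In the comparison of aged with juvenile limbs, FGF9 had no value with a mean of at least 10 counts and in 1 fit without a library.

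Genes called numbered 1488 between blastemas and juvenile limbs, against 2701 with DESeq2, 2707 on all 12 libraries, 3008 with its replicate block and 3260 with no filter, and 1099 to 1800 without 1 library. For aged over juvenile limbs, 25 genes were called, against 304 and 159 with DESeq2, 897 with no filter and 0 to 9 without 1 library. Between blastemas and aged limbs it was 351, against 1097 and 1738 with DESeq2, 1008 with edgeR on all 12 libraries, 1867 with no filter and 73 to 549. The cause was not tested.

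The summed copies differed by 4.69 between blastemas and juvenile limbs (exact p 0.0625 when swapped within animals), by 4.01 to 5.17 without 1 library, by -0.67 to 1.57 between aged and juvenile limbs, and by 3.12 to 5.36 between blastemas and aged limbs. The log2 ratio of the copies ranged from -0.23 to 0.11, from -0.60 to 0.21 and from -0.27 to 0.54 in these comparisons. The coefficient of variation over blastemas was 0.513 and 0.550 for the copies without blastema 2. With an offset of 5 CPM, 2 of the 5 genes most like FGF9 were shared with those at 0.5.

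In an alternative chosen after seeing the data, blastema 2 was also left out of the ratios of means and the bound of IL11, as given above, and of the list counts: 5 genes of the FGF pathway were then called higher and 1 lower, 1 and 2 of the KAZALD1 relatives, 6 and 8 of the other secreted signals, and 5 limb genes higher.

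Only 2 aged limbs were sequenced and FGF9 had 267, 8 and 45 counts in blastemas, aged limbs and juvenile limbs, which limits the precision of the comparisons with aged limbs and of FGF9.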
